A study of Mus musculus with 16 samples.

Results

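The hypoxia response genes described here are the 10 genes Hif1a, Epas1, Egln1, Egln3, Vegfa, Car9, Adm, Ndrg1, Ankrd37 and Ddit4, out of 22911 genes that could be named on the array. They were chosen by symbol as parts of the oxygen-sensing system, and the array holds a probe for each of them. RNA was taken from brown fat (BAT) and gonadal white fat (gWAT) of male mice kept on a normal diet, and each sample was hybridized to its own 1-colour array, with 4 arrays per tissue and genotype and 16 in all. Adipo-Pgam1 KO mice carried floxed alleles of Pgam1, a glycolytic enzyme gene, together with Adipoq-Cre, which is driven by the adiponectin promoter and so acts in adipocytes. Littermate controls carried the same floxed Pgam1 alleles without Cre, and the strain is given as C57BL/6NCrSlc. BAT of Adipo-Pgam1 KO mice is called knockout BAT here, and gWAT labelled as theirs KO-labelled gWAT. All mice were 16 weeks old by label, except replicate 4 of the knockout groups, which is given as 14 weeks in both tissues.

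Cells sense oxygen through prolyl hydroxylases of the Egln family, which use oxygen to mark the alpha subunits of hypoxia-inducible factor (HIF) for destruction. When oxygen is short, the alpha subunits escape, pair with the beta subunit Arnt and switch on genes whose control regions hold the core motif ACGTG or GCGTG. These genes include Egln1 and Egln3 themselves, which closes a negative loop, and genes for vessel growth, pH control and glucose use. The alpha subunits are controlled mainly at the protein level, which an array of RNA does not measure.

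Values are log2 levels, meaning log2 of a probe's signal over the 75th percentile of its array, so that 0 is the level of the 75th percentile and a difference of 1 is a doubling or halving. Genotypes were compared with limma, with p-values adjusted over all genes tested and a threshold of 0.05. Pgam1 itself fell by 1.74 in BAT, whereas KO-labelled gWAT exceeded control gWAT by 0.95 (adjusted p = 0.0139). Another Pgam1 probe ran the same way, at -1.65 in BAT and 1.02 in gWAT. Both probes thus fell in knockout BAT. The sources used here do not name the floxed exon, and where the probes lie relative to it was not tested. Why Pgam1 was higher in KO-labelled gWAT was not tested either, and every direction given for gWAT rests on the label. The slides split the groups unevenly, because 3 of the 4 controls of each tissue were on another slide than the knockout or KO-labelled arrays and the slide of KO-labelled gWAT was also scanned on another day. A fit with the slide as a block therefore compares the 4 knockout or KO-labelled arrays with the single control array on their slide. The 75th percentile itself ranged over BAT controls from 401.3 to 451.3, and over knockout BAT from 650.2 to 916.2. Each change is thus relative to a reference that moved, and the median change over all genes was -0.08 in BAT and 0.05 in gWAT.

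The hydroxylase genes Egln1 and Egln3 moved in opposite directions in the tissues. Egln3 was 7.74-fold lower in knockout than in control BAT and 4.36-fold higher in KO-labelled gWAT. Egln1 was 3.01-fold lower in BAT and 1.44-fold higher in gWAT. Ndrg1 went the other way, 1.80-fold higher in BAT and 1.83-fold lower in gWAT. Of the 10 genes, 8 passed the threshold in BAT, where 61.5% of the 14280 genes tested did so. Epas1, Egln1, Egln3, Vegfa and Ankrd37 were lower (34.0% of all genes) and Hif1a, Adm and Ndrg1 were higher (27.5% of all genes). In gWAT, 3 of the 9 genes that could be tested passed, against 17.8% of 14149 genes, with Egln1 and Egln3 higher (9.99% of all genes) and Ndrg1 lower (7.85% of all genes). The BAT count is read against a tissue in which most genes passed. In whole tissue, fewer cells of a type and less RNA per cell cannot be told apart.

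**Figure D1:**
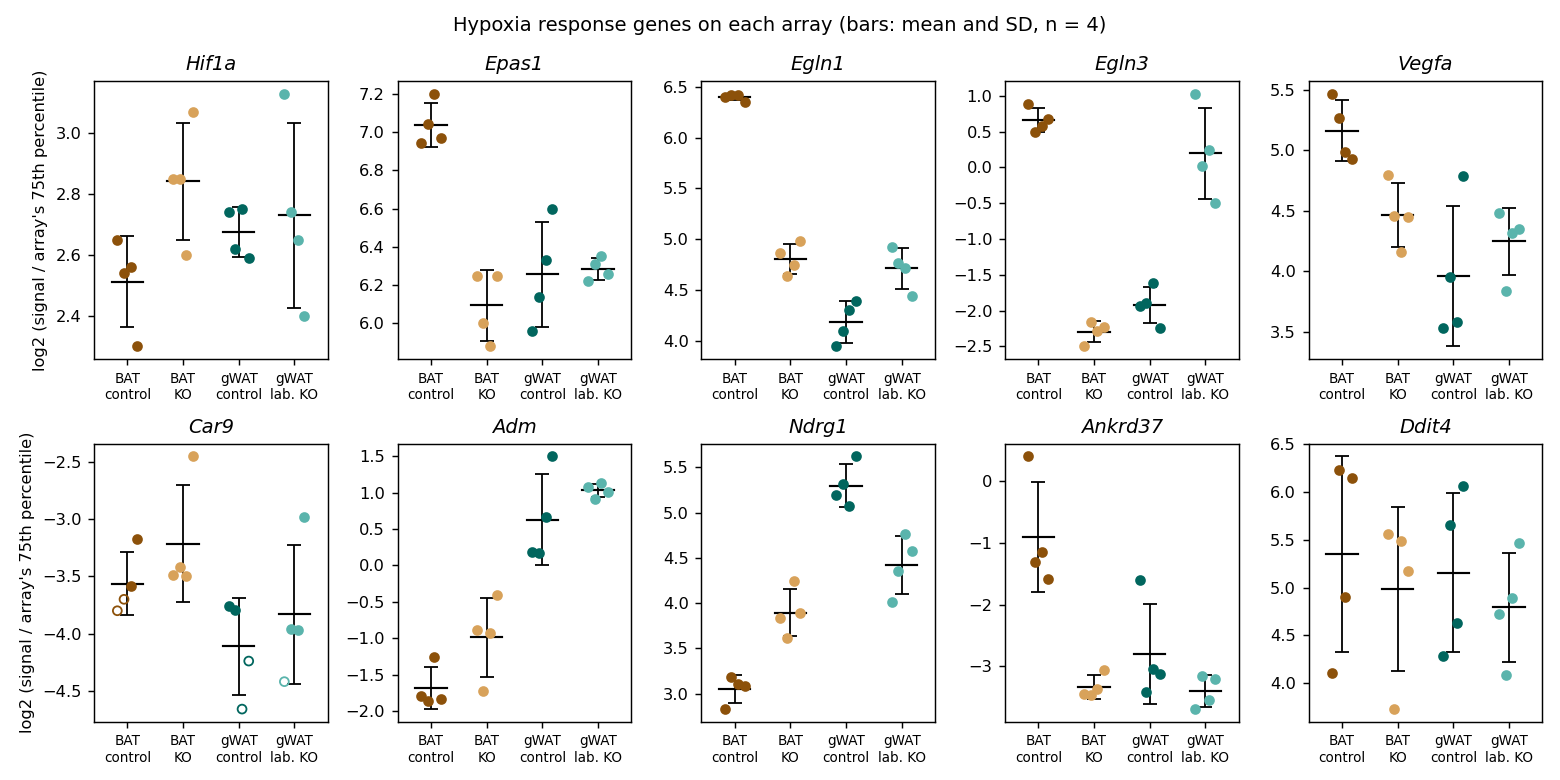
Log2 level (signal over the 75th percentile of the array) of each of the 10 genes on each array, with 1 point per array and bars for the mean and SD of 4 arrays; open points are arrays on which the probe was not well above background. The y axes differ between genes; for Egln3 the BAT control arrays lie between 0.49 and 0.88 and the knockout BAT arrays between -2.50 and -2.16, while the gWAT groups are placed the other way round.

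The promoters of Egln3, Ankrd37 and Egln1, which had the largest falls in BAT among the 10 genes, are shown to let the HIF core motif be seen where it occurs. Each line gives the 250 bases before the start site on the minus strand of mouse build GRCm38.p6 (RefSeq), with every ACGTG and GCGTG on either strand in capitals. Egln3 is at chr12:54203875-54204124, Ankrd37 at chr8:45999851-46000100 and Egln1 at chr8:124949255-124949504.

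Egln3: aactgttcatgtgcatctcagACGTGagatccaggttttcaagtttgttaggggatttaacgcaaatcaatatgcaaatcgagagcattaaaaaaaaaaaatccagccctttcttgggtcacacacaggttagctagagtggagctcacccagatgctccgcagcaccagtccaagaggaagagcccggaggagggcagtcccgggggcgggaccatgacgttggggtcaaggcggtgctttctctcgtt

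Ankrd37: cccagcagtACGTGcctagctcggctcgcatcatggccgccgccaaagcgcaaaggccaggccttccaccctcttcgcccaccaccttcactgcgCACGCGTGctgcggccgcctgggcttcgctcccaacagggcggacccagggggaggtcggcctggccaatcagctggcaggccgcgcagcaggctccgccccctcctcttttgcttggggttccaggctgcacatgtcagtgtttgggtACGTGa

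Egln1: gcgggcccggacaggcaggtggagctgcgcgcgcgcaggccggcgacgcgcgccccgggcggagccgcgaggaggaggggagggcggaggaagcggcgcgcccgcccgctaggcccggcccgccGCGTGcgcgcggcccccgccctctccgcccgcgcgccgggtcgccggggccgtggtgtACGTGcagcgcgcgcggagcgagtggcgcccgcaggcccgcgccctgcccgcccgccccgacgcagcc

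The Egln3 promoter held a single motif, an ACGTG that began 229 bases before the start site. In Ankrd37, ACGTG began 241 and 6 bases before the start site, and a pair of GCGTG motifs on opposite strands overlapped between them. Egln1 held ACGTG at 68 and GCGTG at 126 bases before the start site. Promoter entries, which run from 250 bases before to 50 after the start site, were found for 8 of the 10 genes, all but Epas1 and Ndrg1. All 8 held ACGTG or GCGTG on either strand at a start site, and 7 held ACGTG. For Vegfa this rests on start site 2, since the promoter of start site 1 held neither motif. The 250 bases before start site 2 (chr17:46025164-46025413, minus strand) lie downstream of start site 1, whose own stretch is chr17:46032378-46032627. That match is thus inside the gene as read from start site 1, and whether the stretch acts as a promoter was not tested. Of 32851 mouse promoters of the same length, 43.8% held either motif and 19.6% held ACGTG. Those shares are per promoter and the counts per gene, so they are not a like comparison. Promoters of genes that rose (Hif1a and Adm) and of genes that fell both held a motif, and a match is only a string of letters, not a bound site.

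Hif1a and Epas1 encode the alpha subunits HIF-1alpha and HIF-2alpha. Hif1a stood at 2.65, 2.54, 2.56 and 2.30 on the BAT control arrays (replicates 1 to 4) and at 2.85, 2.85, 2.60 and 3.07 in knockout BAT. The groups overlapped, at replicate 1 of the controls and replicate 3 of the knockouts. The change was 0.33 (standard error 0.13, limma adjusted p = 0.0463), and it did not pass the exact permutation test (two-sided, p = 0.0571). It became -0.26 when arrays were scaled by Actb and Rplp0, and it passed in 2 of the 8 fits that left out an array, with adjusted p up to 0.111. In gWAT, the level of Hif1a was 2.67 ± 0.08 (SD, n = 4) in controls and 2.73 ± 0.30 (SD, n = 4) in the KO-labelled arrays, a difference of 0.06 with a 95% interval from -0.31 to 0.42.

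Epas1 fell in BAT, in contrast to Hif1a. Its level was 6.94, 7.04, 7.20 and 6.97 on the control arrays and 6.25, 6.00, 5.88 and 6.25 on the knockout arrays. Every knockout array lay below every control array. The change was -0.94 (standard error 0.12, adjusted p = 0.000192), a level 1.92-fold lower, and it stayed past the threshold in all 16 alternative settings and in all 8 fits that left out an array, at values from -1.53 to -0.39. The gWAT control arrays spanned 5.96 to 6.60, and the KO-labelled arrays lay inside that range, at 6.22 to 6.35, and the difference of 0.03 had a 95% interval from -0.32 to 0.37. That difference was negative in 4 of the alternative settings. Between the tissues the change differed by 0.97 (limma interaction, standard error 0.19, adjusted p = 0.000832), but by 0.37 (adjusted p = 0.0833) under quantile normalization and by 0.56 (adjusted p = 0.139) with the slide as a block.

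Egln1 encodes the main HIF prolyl hydroxylase of most tissues. In BAT the 4 control arrays were closely spaced, at 6.40, 6.42, 6.42 and 6.35, and the knockout arrays were at 4.87, 4.64, 4.75 and 4.98. The gap between the groups was many times the spread within either. The change was -1.59 (standard error 0.10, adjusted p = 9.51e-06). In gWAT, Egln1 stood at 3.95, 4.10, 4.31 and 4.40 in controls and at 4.93, 4.77, 4.72 and 4.44 in the KO-labelled arrays. These groups did not overlap either, although replicate 4 of each lay within 0.04 of the other. The difference of 0.53 (standard error 0.15, adjusted p = 0.0472) was just past the threshold and was lost in 6 of the 8 fits that left out an array, when any array but replicate 4 of either genotype was missing. With the slide as a block it was 0.32 (adjusted p = 0.534).

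Egln3 encodes a hydroxylase of the same family whose RNA is among the most oxygen-sensitive in many cells. On the BAT control arrays its level was 0.88, 0.49, 0.58 and 0.68, and on the knockout arrays it was -2.50, -2.16, -2.29 and -2.23. All knockout arrays were well above background, so this low level was measured and is not a limit of detection. The change was -2.95 (standard error 0.12, adjusted p = 1.87e-06), the 72nd largest fall of 14280 genes. On the gWAT control arrays Egln3 stood at -1.94, -1.89, -1.62 and -2.24, and on the KO-labelled arrays at 1.03, 0.02, 0.25 and -0.50. The labelled arrays were all higher, and their SD of 0.64 was the widest of the 4 groups. The difference of 2.12 (standard error 0.30, adjusted p = 0.00461) ranked 94th by rise among 14149 genes. It stayed past the threshold in each of the 8 fits that left out an array, at 1.85 to 2.36. With the slide as a block it was 2.44 with an adjusted p of 0.061.

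In the order of its levels, Egln3 was highest in BAT controls (0.66 ± 0.17), followed by KO-labelled gWAT (0.20 ± 0.64), the gWAT controls (-1.92 ± 0.26) and knockout BAT (-2.29 ± 0.15; all mean ± SD, n = 4). The ranges of the first pair overlapped, as did those of the last pair. The fall in BAT thus ended near the level of control gWAT, and the rise in gWAT ended near that of control BAT. Egln1 was ordered differently, with BAT controls at 6.40 ± 0.03, knockout BAT at 4.81 ± 0.15, KO-labelled gWAT at 4.72 ± 0.21 and gWAT controls at 4.19 ± 0.20. Here the middle pair overlapped. The change of Egln3 differed between the tissues by 5.08 (interaction, standard error 0.34, adjusted p = 1.04e-06), the 6th largest positive difference of 14820 genes, and that of Egln1 by 2.11 (standard error 0.18, adjusted p = 2.77e-06).

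The genes whose levels followed Egln3 most closely were found by the root mean square difference over the 16 arrays, after each gene was centred on its own mean. Among 14795 genes these were Elovl4 (0.529), which elongates very long-chain fatty acids, Pnpla3 (0.613), a lipid droplet enzyme, Lrp3 (0.628), Paqr9 (0.637) and P2rx6 (0.661), an ATP-gated channel. These genes were chosen for likeness to Egln3 on these same 16 arrays, so changes that run with Egln3 follow from the choice. Their values are given as description only. In BAT, Pnpla3, Lrp3, Paqr9 and P2rx6 fell by 1.34 to 2.52. Elovl4 was not well above background on any knockout BAT or control gWAT array, so that its likeness to Egln3 rests partly on such values. It was at least 3.24-fold lower in knockout than in control BAT, and entered the BAT test only through its control arrays. In gWAT, Elovl4 was not tested, Pnpla3 rose by 1.05, Lrp3 by 1.88 and P2rx6 by 0.81, and Paqr9 differed by 0.80 (adjusted p = 0.0798). Of the other hypoxia genes, Egln1 was nearest to Egln3, at 0.968 and rank 231.

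Vegfa encodes the growth factor that drives the growth of blood vessels. Its brightest probe stood at 5.47, 5.27, 4.99 and 4.93 on the BAT control arrays and at 4.80, 4.46, 4.16 and 4.45 on the knockout arrays. The groups did not overlap, by a margin of 0.13 between the lowest control and the highest knockout array. The change was -0.70 (standard error 0.17, adjusted p = 0.00674). It was -0.16 (adjusted p = 0.511) under spike-in scaling, -0.42 (adjusted p = 0.0775) under quantile normalization and -0.46 (adjusted p = 0.181) with the slide as a block. The 4 Vegfa probes differed in size, with changes of -0.70, -0.29, -0.92 and -0.36. In gWAT the levels were 3.53, 3.95, 3.58 and 4.79 in controls and 4.48, 3.84, 4.32 and 4.35 in the KO-labelled arrays. Replicate 4 of the controls was above every labelled array, and the difference of 0.29 (adjusted p = 0.512) had a 95% interval from -0.36 to 0.93.

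Adm encodes adrenomedullin, a vasodilator peptide. In BAT it stood at -1.79, -1.86, -1.26 and -1.84 in controls and at -0.88, -1.72, -0.93 and -0.41 in knockouts. Replicate 3 of the controls and replicate 2 of the knockouts crossed. The change of 0.70 (standard error 0.27, adjusted p = 0.0469) was lost in 6 of the 8 fits that left out an array, with adjusted p up to 0.117, and the exact permutation p was 0.0571. Leaving out replicate 4 of the knockouts, the 14-week mouse, gave 0.51, and scaling by Actb and Rplp0 gave 0.11 (adjusted p = 0.736). In gWAT, Adm ranged from 0.17 to 1.50 in controls and from 0.92 to 1.13 on the KO-labelled arrays, and the difference of 0.41 did not pass (adjusted p = 0.334). Without replicate 4 of the gWAT controls it was 0.70 (adjusted p = 0.0324).

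Car9 encodes carbonic anhydrase 9, a membrane enzyme that exports acid and is almost silent in tissue well supplied with oxygen. Its brightest probe was dim, well above background on 2 of 4 BAT control arrays, on all 4 knockout BAT arrays, and in gWAT on 2 control and 3 labelled arrays. BAT levels were -3.80, -3.70, -3.58 and -3.17 in controls and -3.49, -3.42, -3.50 and -2.45 in knockouts. The groups overlapped, and the difference of 0.35 did not pass (adjusted p = 0.264). It passed at 0.89 (adjusted p = 0.00517) under spike-in scaling and at 1.66 (adjusted p = 2.66e-05) with the mean over probes, and it was -0.24 under Actb and Rplp0 scaling. Car9 entered the BAT test only through its knockout arrays, and was not tested in gWAT. A second probe was not well above background on any BAT control array and was well above it on all 4 knockout arrays, at -3.49 to -2.54, which makes it at least 1.96-fold higher. The probes of Car9 therefore disagreed in BAT.

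Ndrg1 encodes a cytoplasmic protein induced by hypoxia and by differentiation. BAT levels were 2.83, 3.18, 3.11 and 3.08 in controls and 3.84, 3.61, 4.24 and 3.89 in knockouts. The knockout arrays were all higher, and the change was 0.84 (standard error 0.15, adjusted p = 0.00118), or 0.25 (adjusted p = 0.196) when scaled by Actb and Rplp0. In gWAT the levels were 5.19, 5.31, 5.07 and 5.62 in controls and 4.01, 4.36, 4.76 and 4.57 in the KO-labelled arrays. Here the labelled arrays were all lower, by 0.87 (standard error 0.19, adjusted p = 0.0191). The gWAT call was lost under spike-in scaling, at -0.43 (adjusted p = 0.228), under median scaling, at -0.75 (adjusted p = 0.0658), with the slide as a block, at -1.19 (adjusted p = 0.0957), and without replicate 2 of either group, at -0.87 and -0.85. The changes differed between the tissues by -1.72 (interaction, standard error 0.25, adjusted p = 9.38e-05), and this difference passed in all 13 alternative settings.

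Ankrd37 encodes a small ankyrin-repeat protein, and its gene is a direct HIF target. On the BAT control arrays it stood at 0.40, -1.31, -1.15 and -1.58, and on the knockout arrays at -3.45, -3.46, -3.37 and -3.05. Replicate 1 of the controls was far above the other 3, and the knockout arrays were tight and all lower. The change was -2.42 (standard error 0.39, adjusted p = 0.000708), a level 5.36-fold lower, or -1.99 without that control. In gWAT, replicate 1 of the controls was again the highest array, at -1.60, with the others at -3.41, -3.04 and -3.12. The KO-labelled arrays were at -3.69, -3.15, -3.55 and -3.20, and the difference of -0.60 (adjusted p = 0.278) was -0.21 without control replicate 1. Between the tissues its change differed by 1.82 (limma interaction, standard error 0.58, adjusted p = 0.0174), a call that was lost with the slide as a block (1.48, adjusted p = 0.254) and under spike-in scaling (1.72, adjusted p = 0.0529).

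Ddit4 encodes an inhibitor of mTORC1 that is induced by hypoxia, glucocorticoids and other stress. It varied more within groups than any difference between them. BAT levels were 4.11, 6.23, 4.90 and 6.15 in controls and 5.56, 3.73, 5.49 and 5.17 in knockouts. In gWAT they were 4.29, 5.65, 4.63 and 6.06 in controls and 4.72, 4.09, 4.89 and 5.47 in the KO-labelled arrays. All groups overlapped. The differences were -0.36 in BAT (adjusted p = 0.603, 95% interval -1.64 to 0.93) and -0.37 in gWAT (adjusted p = 0.58, 95% interval -1.34 to 0.60), so that a fall of more than 2-fold in either tissue lies within these bounds.

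**Figure D2:**
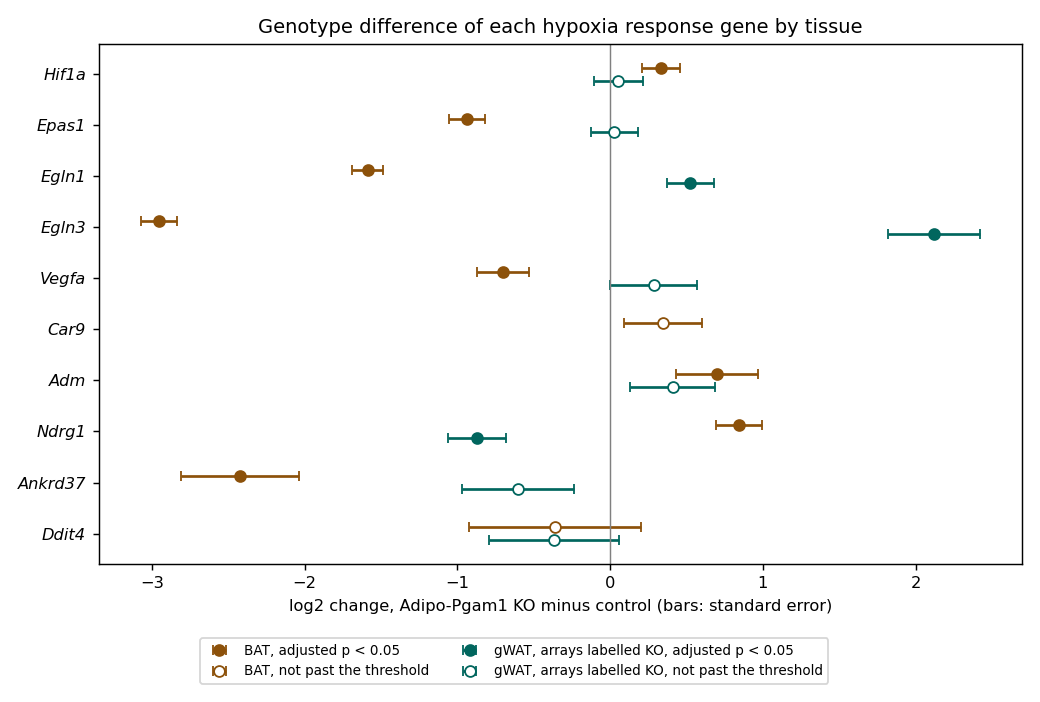
Log2 change of each hypoxia response gene (Adipo-Pgam1 KO minus control, x axis) in BAT and in gWAT; points are the fitted changes, bars the standard error, and filled points passed an adjusted p of 0.05. Egln3 sits at -2.95 in BAT and 2.12 in gWAT, and Egln1 and Ndrg1 are the other genes with filled points on both sides of 0; Car9 was not tested in gWAT.

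Egln1, Egln3 and Ndrg1 passed the threshold in both tissues, each in opposite directions, as did 4.86% of the 13609 genes tested in both. Being lower in BAT and higher in gWAT, like Egln1 and Egln3, was found for 3.70% of those genes, and the pattern of Ndrg1 for 1.17%. Over the interaction term, 6 of the 10 genes passed, against 48.3% of 14820 genes. Epas1, Egln1, Egln3, Vegfa and Ankrd37 had the more positive change in gWAT (27.4% of all genes) and Ndrg1 the more positive change in BAT (21.0%). For Vegfa, the interaction of 0.99 (standard error 0.35, adjusted p = 0.0309) was held in 9 of the 16 fits that left out an array and was -0.08 with the slide as a block. By the separation of arrays alone, 6 of the 10 genes had groups that did not overlap in BAT, against 57.1% of all genes, and 3 of the 9 tested in gWAT, against 24.2%.

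In control mice, the tissues themselves differed in 7 of the 9 genes tested, against 67.7% of 14304 genes. Control gWAT was lower than control BAT in Egln3 (by 5.99-fold), Egln1 (4.62-fold), Ankrd37 (3.69-fold), Vegfa (2.31-fold) and Epas1 (1.71-fold), a direction found for 37.0% of all genes. It was higher in Adm (4.96-fold) and Ndrg1 (4.75-fold), a direction found for 30.7%. Adjusted p-values in limma for these 7 genes ranged from 2.16e-09 for Egln1 to 0.000797 for Ankrd37. The difference of Epas1 was -0.10 (adjusted p = 0.473) under quantile normalization, and that of Ankrd37 was -1.10 (adjusted p = 0.177) with the slide as a block. Control groups did not overlap in the same 7 genes, against 60.8% of all genes. Hif1a and Ddit4 differed by 0.16 and -0.19 and did not pass, but Hif1a passed at 0.36 (adjusted p = 0.0232) under quantile normalization and at 0.31 (adjusted p = 0.0358) with normexp. This comparison and the genotype comparison in BAT share the BAT control arrays. Between the knockout groups, which were not tested, gWAT was above BAT by 2.50 in Egln3 and by 2.02 in Adm, and Egln1, Epas1, Ankrd37 and Hif1a differed by 0.19 or less.

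**Figure D3:**
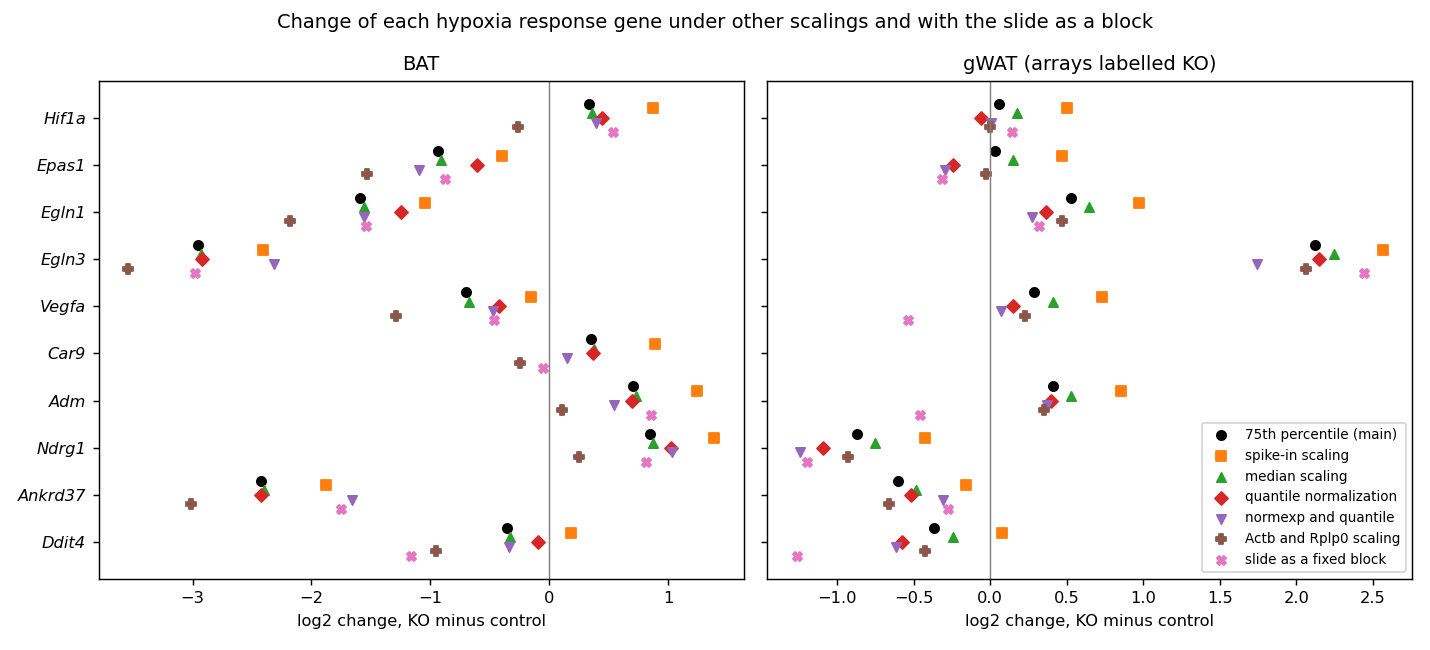
Log2 change of each hypoxia response gene (x axis) in BAT and in gWAT under the main scaling, 5 other scalings and with the slide as a block, with 1 symbol per setting. Egln3 stays below -2 in BAT and above 1 in gWAT in every setting shown, whereas Vegfa in gWAT and Hif1a in BAT have symbols on both sides of 0.

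The remaining parts of the oxygen-sensing machinery were followed in a list of 14 tested genes. In BAT, 3 were higher and 7 lower, against 27.5% and 34.0% of all genes. The median change was -0.29, beside -0.08 over all genes. Cited2, which competes with HIF for its coactivators, rose by 1.43, the ubiquitin ligase Siah2 by 0.55 and Vhl, which recognizes hydroxylated HIF, by 0.24. P4htm, a membrane-bound prolyl hydroxylase, fell by 1.02, Elob, a partner of Vhl, by 0.94 and the coactivator Crebbp by 0.91. In gWAT none of the 14 was higher in limma, against 9.99% of all genes, and 4 were higher at an unadjusted p under 0.05. There were 3 lower genes, against 7.85% of all genes. They were Hif3a, which encodes another alpha subunit, at -1.70, Cited2 at -1.10 and the beta subunit Arnt at -0.65. Egln2, the third hydroxylase of the family, fell by 0.70 in BAT (adjusted p = 0.000919) and differed by -0.16 in gWAT (adjusted p = 0.467).

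Among 31 other known hypoxia targets, 8 were higher and 12 lower in BAT, where 27.5% and 34.0% of all genes were. Ero1a, an oxidase of the endoplasmic reticulum, rose by 3.27 and the chemokine receptor Cxcr4 by 2.50. Stc2, a secreted glycoprotein, was not well above background in BAT controls and was at least 2.73-fold higher. Bnip3, a mitophagy receptor, fell by 2.39, Ppp1r3c, which targets a phosphatase to glycogen, by 2.25 and the lipoprotein receptor Vldlr by 1.01. In gWAT 4 were higher and 3 lower, with a median of 0.03, and the shares over all genes were 9.99% and 7.85%. The glycogen branching enzyme Gbe1 rose by 1.78, Ero1a by 0.97 and heme oxygenase Hmox1 by 0.95. Bnip3 fell by 0.99 and Ccng2, a cyclin induced in resting cells, by 0.68.

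A list of 14 glycolytic hypoxia targets had 2 higher and 9 lower genes in BAT, against 27.5% and 34.0% of all genes. In gWAT 7 were higher and 0 lower, against 9.99% and 7.85% of all genes. The medians were -0.75 in BAT and 0.67 in gWAT, beside -0.08 and 0.05 over all genes. In limma without adjustment, the count of lower genes in gWAT at p under 0.05 was 1, Pfkfb3 at -0.84 (adjusted p = 0.125). In BAT, Pdk1, a kinase that inhibits pyruvate dehydrogenase, fell by 1.45, Pfkfb3 by 1.30 and the phosphofructokinase Pfkl by 1.24. Pfkfb4 rose by 1.15 and the glucose transporter Slc2a1 by 0.88. In gWAT Pfkl rose by 1.89, Gpi1 by 1.69 and Gapdh by 1.47, and Pdk1 rose by 1.01.

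Partners of the secreted proteins Vegfa and Adm were measured as well. Of 8 tested Vegf ligands and receptors, 0 rose past the threshold in BAT, against 27.5% of all genes. None rose at an unadjusted limma p under 0.05 either. Past the threshold, 3 fell, against 34.0% of all genes, namely Vegfb by 1.97 and the co-receptors Nrp1 and Nrp2 by 1.43 each. In gWAT none passed, against 17.8% of all genes, and Nrp2, at -0.80, was the only gene with an unadjusted limma p under 0.05. Kdr, the main Vegfa receptor, differed by -0.45 in both tissues and did not pass in either (adjusted p = 0.0773 and 0.161). For adrenomedullin, the receptor Calcrl rose by 0.44 in BAT, while its accessory protein Ramp3 fell by 1.05 and Ramp2, at -0.37, did not pass. Ramp1, listed with them although it pairs with Calcrl mainly for another peptide, rose by 1.36. None of these 4 genes passed in gWAT, where Ramp2 differed by -0.56 (unadjusted p = 0.0344).

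Among relatives of the 10 genes, Ddit4l, a relative of Ddit4, was at least 11.7-fold higher in knockout BAT, and Adm2, a relative of Adm, at least 2.50-fold higher, both against controls in which the probe was not well above background. Ndrg4 rose by 1.69, whereas Ndrg2 fell by 1.06 and Ndrg3 by 0.97, so that the Ndrg family moved in both directions. In gWAT, Ndrg2 fell by 1.12, and Ndrg3 and Ndrg4 did not pass. A list of 12 genes held targets of Atf4, a stress factor that shares targets such as Vegfa and Ddit4 with HIF, and Atf4 itself. In BAT 10 were higher and 0 lower, against 27.5% and 34.0% of all genes, led by Fgf21 at 6.86, Psat1 at 4.89 and Trib3 at 4.30. Their median was 2.81 as fitted and 1.96 with Slc7a11, which was not well above background in controls, placed at its bound. Neither Fgf21 nor Slc7a11 was well above background on all 4 control arrays of either tissue. Both thus entered the BAT test only through their knockout arrays, and Fgf21 entered the gWAT test only through its KO-labelled arrays. None of the 12 had a lower level at an unadjusted limma p under 0.05. In gWAT, 4 of 11 were higher and 0 lower, against 9.99% and 7.85% of all genes. Fgf21 was at 4.15, Trib3 at 2.85 and Atf5 at 1.79, and the median was 0.40. Sesn2 (-0.64) was the only lower gene at an unadjusted limma p under 0.05.

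**Figure D4:**
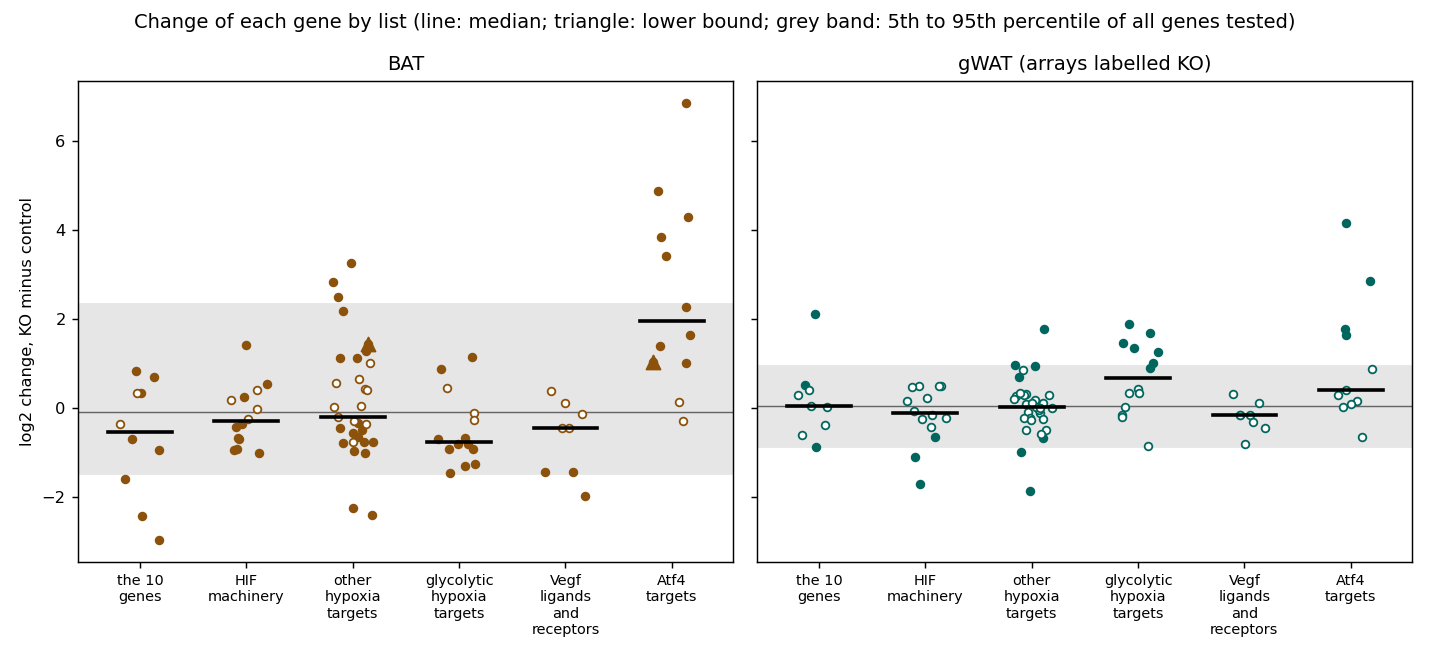
Log2 change (Adipo-Pgam1 KO minus control) of every tested gene of 6 lists in BAT and gWAT; filled points passed an adjusted p of 0.05, triangles are genes placed at the lower bound of their rise, black lines are medians, and the grey band spans the 5th to 95th percentile of all genes tested. The 10 hypoxia genes spread on both sides of 0 in BAT, the glycolytic targets have medians of -0.75 in BAT and 0.67 in gWAT, and the Atf4 targets lie highest in BAT.

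Markers of cell types moved with the genotypes and are given as summed levels, on the linear scale of signal over the 75th percentile. Beside the counts below, 27.5% of all genes were higher and 34.0% lower in BAT, and 9.99% and 7.85% in gWAT. Of 8 endothelial markers, 0 passed in either tissue (in limma, also 0 at an unadjusted p under 0.05), and their sum ranged from 25.1 to 36.0 in BAT controls and from 20.3 to 41.7 in knockouts. Of 8 brown adipocyte markers, 6 were lower in BAT, where the sum fell from between 3300 and 3540 to between 1150 and 1880. Of 8 genes listed as white adipocyte markers, 7 were lower, from 2530 to 3060 down to 776 to 1070. This list does not mark white fat alone, since its sum in control gWAT, 2740 to 4280, overlapped that in control BAT. Between the control tissues, 4 of the 8 were higher in gWAT and 1 lower, against 30.7% and 37.0% of all genes. The fall in BAT is thus one of genes that brown fat holds as well. Macrophage markers were higher in 7 of 8, with sums of 27.1 to 37.6 and of 90.5 to 137, and fibroblast markers in 7 of 8, with sums of 131 to 181 and of 242 to 351. In gWAT, 2 of 8 macrophage markers were higher and 2 of 8 white adipocyte markers lower. Of 5 tested brown adipocyte markers, 4 were higher in KO-labelled gWAT, with a sum of 66.7 to 178 against 11.8 to 20.6 in controls. Ucp1 was well above background on 0 gWAT control arrays and on 3 labelled arrays, and was at least 7.35-fold higher. Zic1, a marker of classical brown fat, was not well above background on any gWAT array. Skeletal muscle markers summed to 0.533 to 1.28 in control and 1.01 to 92.9 in knockout BAT. There 1 of 4 tested passed, Acta1, which rose by 3.11 (limma adjusted p = 0.0291). Ckm, Myh4, Myh1 and Actn3 were each well above background on 2 knockout BAT arrays and on no BAT control array. In gWAT the muscle markers summed to 3.5 to 24.8 in controls and 29.8 to 58.3 on the KO-labelled arrays, where 0 of 5 tested passed. Epididymis markers, a check on the gonadal depot, summed to at most 1.92 on any gWAT array. The part of these cell types in the changes of the hypoxia genes was not tested.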

How the data were processed

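The arrays were Agilent SurePrint G3 Mouse GE 8x60K, read with Agilent Feature Extraction 10.7.1.1 per the file headers, whose design names mouse build mm9. The authors deposited, for each spot, a background-subtracted signal intensity on a linear scale, and a table of normalized signal from GeneSpring, which matched the intensity over the array's 75th percentile. The labels and the study's methods give different amounts of RNA per array.

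Here the intensity was taken relative to that percentile and put on the log2 scale. Spots of irregular signal (1133 over the 16 arrays) were left out, and no spot was saturated. Probes were named from RefSeq accessions (91.9% of 35886 matched), and the brightest probe stood for a gene. Genes well above background on all 4 arrays of a genotype were tested with limma 3.58.1 (R 4.3.3) and Benjamini-Hochberg adjustment over all genes. The model took BAT and gWAT separately, or all 16 arrays for the interaction and the controls. The model was tested on simulated data. Single genes were also compared by two-sided exact permutation, whose smallest p is 0.0286 with 4 arrays against 4. Intervals are 95% from limma, and precision is limited by the small number of arrays. The labels do not say which tissues came from the same mouse. The series states that 4 independent samples were used per group.

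Alternatives were other scalings (spike-ins, median, quantile, normexp with an offset of 50, Actb and Rplp0, the deposited table), other filters, the mean over probes, the slide or replicate number as a block, the spread shared over 16 arrays, a trend on intensity, the methods' t-test and leaving out each array. Named genes were the 10 genes, the 3 that rose and fell most in each list, relatives and receptors, and the 5 genes most like Egln3, except 1 gene that is not reported here. The genes and lists were chosen with earlier results of these data known. Sequences of probes and proteins were not used here.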

Additional observations from a re-analysis of the deposited data

Results flagged for a closer look

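The change of 6 hypoxia genes differed between the tissues by the interaction test over all 16 arrays. The gWAT change minus the BAT change was 0.97 for Epas1, 2.11 for Egln1, 5.08 for Egln3, 0.99 for Vegfa, -1.72 for Ndrg1 and 1.82 for Ankrd37. Single arrays stood apart in 2 of the 40 groups of 4 arrays examined, where chance gives about 1 in 20. Replicate 4 of the knockout BAT arrays, the 14-week mouse, was the highest for Car9, and its gap to the next array was 0.924 of the range of the group (-3.50 to -2.45). Replicate 3 of the BAT controls was the highest for Adm, with a gap of 0.883 of the range (-1.86 to -1.26). The second probe of Car9, which the comparisons do not use, was at least 1.96-fold higher in knockout than in control BAT.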

How the results depend on the processing

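The falls of Epas1, Egln1, Egln3 and Ankrd37 in BAT passed the threshold in all 16 alternative settings and in all fits that left out an array, as did the tissue differences of Egln1, Egln3 and Ndrg1 in all 13 settings run for them. Leaving out arrays gave 6 to 7 genes past the threshold in BAT, 1 to 4 in gWAT, 5 to 6 for the tissue difference and 7 to 7 in controls. Scaling by Actb and Rplp0 left 5 genes in BAT, median scaling left 1 in gWAT, testing without a filter on dim probes left 1 in gWAT, and the slide as a fixed block left 0 in gWAT (of 184 genes called in all; at an unadjusted limma p under 0.05, Egln3 and Ndrg1 passed, 2 genes) and 3 for the tissue difference. The causes were not tested, other than that the slide block leaves a single control array to compare with.

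The replicate numbers were not taken to pair the samples, since the labels do not say that they do and deviations of same-numbered samples correlated between -0.119 and 0.514 and were not all above 0.1. With the replicate block, 7, 2, 6 and 7 genes passed in BAT, gWAT, the tissue difference and the controls, Hif1a in BAT (adjusted p = 0.0958) and Egln1 in gWAT (adjusted p = 0.14) being lost, and 1087 of all gWAT genes were called.

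Over all genes, the 2525 calls in gWAT became 5100 under spike-in scaling, 1384 under median scaling, 1138 with no filter, 4040 with the spread shared over 16 arrays, 1618 with the methods' t-test after adjustment and 4473 unadjusted with at least 1.2-fold. The 7162 genes whose change differed between tissues became 3265 with the slide block. The higher share of calls in BAT went from 44.8% to 79.7% under spike-in scaling, where the median of all genes was 0.46, and to 17.7% under Actb and Rplp0 scaling, where it was -0.67. In gWAT it went from 56.0% to 95.3% under spike-in scaling (median 0.49), 71.0% under median scaling and 35.9% with the slide block. For the tissue difference it went from 56.6% to 83.7% under Actb and Rplp0 scaling, and for the controls from 45.4% to 29.1% with the same scaling and to 57.8% under spike-in scaling.

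Signs turned only for values that were not past the threshold under the alternative. Under Actb and Rplp0 scaling, in BAT Hif1a was -0.26 and Car9 -0.24, in gWAT Hif1a was -0.0025 and Epas1 -0.0289, the tissue differences were 0.26 (Hif1a), 0.46 (Car9), 0.24 (Adm) and 0.52 (Ddit4), and in controls Hif1a was -0.17. With the slide as a fixed block, Car9 in BAT was -0.0496, in gWAT Epas1 was -0.31, Vegfa -0.54 and Adm -0.46, and the tissue differences of Vegfa and Car9 were -0.0777 and 0.46, the latter 0.0524 with the slide as a random block. Under spike-in scaling Ddit4 was 0.19 in BAT, 0.0766 in gWAT and 0.0441 in controls. Quantile normalization gave -0.06 for Hif1a and -0.24 for Epas1 in gWAT, 0.0549 for the tissue difference of Car9 and 0.26 for Ddit4 in controls, and with normexp Epas1 in gWAT was -0.30 and Ddit4 in controls 0.13. Median scaling gave tissue differences of 0.0254 for Car9 and 0.0845 for Ddit4. Fits that left out an array ranged from -0.77 to 0.0606 for Ddit4 in BAT, from -0.0769 to 0.16 for Hif1a and from -0.0694 to 0.14 for Epas1 in gWAT, from -0.35 to 0.19 for Car9 and from -0.43 to 0.40 for Ddit4 in the tissue difference, and from -0.60 to 0.11 for Ddit4 in controls.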

Other observations

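The arrays of replicate 1 of the controls were alike in a pair of hypoxia genes in both tissues. Ankrd37 was highest there among the 4 controls, at 0.40 in BAT and -1.60 in gWAT, and Ddit4 was lowest, at 4.11 in BAT and 4.29 in gWAT. Among the knockout arrays, replicate 2 had the lowest Ddit4 in BAT (3.73) and in gWAT (4.09). Whether equal numbers mark the same mouse is not given in the labels.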
